A study of Mus musculus with 12 samples.

Results

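The genes described here are 9 that type I interferon is known to induce, followed across mouse cortex and cultured neural progenitor cells (NPC): Irf7, Isg15, Herc6, Usp18, Ifit1, Ifit3, Rsad2, Oasl2 and Bst2. They were taken by symbol, as 9 of the 34102 genes in the table, and all 9 had counts in every library. RNA was sequenced from 12 libraries in 4 groups of 3: cortex labelled SRSF10 conditional knockout (cKO), control cortex, NPC labelled SRSF10 knockdown, and control NPC. All groups were C57BL/6. Both cortex groups carried floxed Srsf10 on both alleles, and only the cKO group carried Nestin-Cre, a transgene whose promoter is active in neural progenitors. No group had Nestin-Cre without floxed Srsf10, so loss of Srsf10 and an effect of the transgene cannot be told apart. The NPC were primary cells cultured from cortex in medium with the growth factors bFGF and EGF, and the control was labelled WT. Per the labels, NPC were infected with lentivirus at a multiplicity of infection of 30, the virus was left on for 24 h, and RNA was taken 72 h after infection. The same protocol stands under the control libraries, and the labels do not say which virus those cells received. An effect of the knockdown and one of a difference in virus thus cannot be told apart. The labels also leave out the age of the mice and whether libraries of a group came from separate animals or cultures. The p-values thus measure the spread between these libraries, which may be technical in part. Every group held male and female libraries, as given below, so not all libraries of a group came from the same animal.

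Type I interferons are secreted when a cell's sensors meet viral or misplaced nucleic acid. They bind the IFNAR receptor, whose kinases JAK1 and TYK2 activate transcription factors. These bind a repeated GAAA motif near the start of interferon-induced genes, which then make antiviral proteins and proteins that amplify or restrain the response. In brain, microglia and vessel cells are known for strong responses, and neural progenitors respond as well.

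Libraries held 26074094 to 36713205 counts. Srsf10, the gene named in the labels, had 6244, 6791 and 5963 counts in the knockdown-labelled NPC libraries, against 6948, 5952 and 6588 in control NPC. It had 7296, 6432 and 8207 counts in the cKO-labelled cortex libraries, against 7113, 7119 and 7391 in control cortex. The log2 fold change of Srsf10 was -0.05 (SE 0.07, adjusted p = 0.774) in NPC and 0.03 (SE 0.08, adjusted p = 0.917) in cortex. The gene-level count thus did not show the labelled loss in either system. A count over the whole gene also does not check the removal of a floxed exon. All directions below are those of libraries labelled knockdown or cKO. Replicate 3 of both NPC groups came from male cells, with 90.9 CPM (counts-per-million) of the Y-linked Ddx3y in the knockdown-labelled library and 84.3 CPM in the control, and replicates 1 and 2 of both came from female cells, with at most 0.294 CPM. In cortex, replicate 3 of the cKO group and replicates 2 and 3 of the control group were male.

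RefSeq start-site windows on GRCm38.p6, from 250 bases before to 50 after the start, matched 8 of the 9 genes by symbol, all but Usp18. Each window was searched on both strands for GAAANNGAAA, the core that interferon-activated factors bind, with overlapping matches counted. It occurred in 5 of these 8 genes (62.5%), and in 3.99% of all 27025 genes with a window of the same length. The 5 windows with a match are shown from 170 to 51 bases before the start, 5′ to 3′ on the strand of the gene, with every base of a match in capitals.
Isg15, chr4:156200869-156200988, minus strand: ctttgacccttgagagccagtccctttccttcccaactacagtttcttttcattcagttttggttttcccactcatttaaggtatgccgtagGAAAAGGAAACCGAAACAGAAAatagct
Ifit1, chr19:34640719-34640838, plus strand: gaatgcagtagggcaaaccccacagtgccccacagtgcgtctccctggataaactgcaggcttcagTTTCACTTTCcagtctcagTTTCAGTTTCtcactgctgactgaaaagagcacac
Ifit3, chr19:34583359-34583478, plus strand: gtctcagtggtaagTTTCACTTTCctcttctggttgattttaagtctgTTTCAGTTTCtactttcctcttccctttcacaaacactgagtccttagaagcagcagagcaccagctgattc
Rsad2, chr12:26456503-26456622, minus strand: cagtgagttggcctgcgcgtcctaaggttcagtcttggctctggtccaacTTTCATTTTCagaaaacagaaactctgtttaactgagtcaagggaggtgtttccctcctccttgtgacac
Bst2, chr8:71537523-71537642, minus strand: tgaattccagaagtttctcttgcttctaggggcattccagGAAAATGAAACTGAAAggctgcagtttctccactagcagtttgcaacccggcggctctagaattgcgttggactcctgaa
Isg15 carried 3 overlapping matches and Bst2 carried 2, while Ifit1 and Ifit3 each carried 2 separate ones and Rsad2 carried 1. Read on the opposite strand, the matches of Ifit1 and of Ifit3 were the same pair, GAAAGTGAAA and GAAACTGAAA. The second of these letters also stood in the Bst2 window. Irf7, Herc6 and Oasl2 had no match in their windows, which says only that these letters are not there.

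In NPC, 6 of the 9 genes were higher in the knockdown-labelled library than in its same-numbered control in every pair: Isg15, Herc6, Ifit1, Ifit3, Rsad2 and Oasl2. This held for 28.3% of all 14258 genes tested. The same 6 genes rose 2.08- to 3.48-fold in the fit that used the replicate numbers as pairs, and Bst2 and Usp18 did not pass the test. The background of that fit was broad, with 11.9% of all tested genes called higher. Without pairs, only Herc6 passed, and 0.351% of all tested genes were called higher. In 1 fit of all 12 libraries without pairs, Rsad2 was called in its place (adjusted p = 0.0238) and Herc6 was not (adjusted p = 0.0540), with 1.39% of all tested genes called higher. Irf7 had too few counts for the filter in the fits of the NPC libraries alone and was not tested there, so 8 members entered those fits. The median log2 fold change of these 8 was 1.16 with pairs and 1.17 without, against 0.00 over all tested genes in both fits. Residuals of same-numbered NPC libraries correlated by 0.47, 0.49 and 0.44 over genes, which is why both fits are given. With DESeq2 and the pairs, 5 of the 6 genes were called, with 8.18% of all tested genes called higher, and Ifit3 was given no adjusted p.

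**Figure D1:**
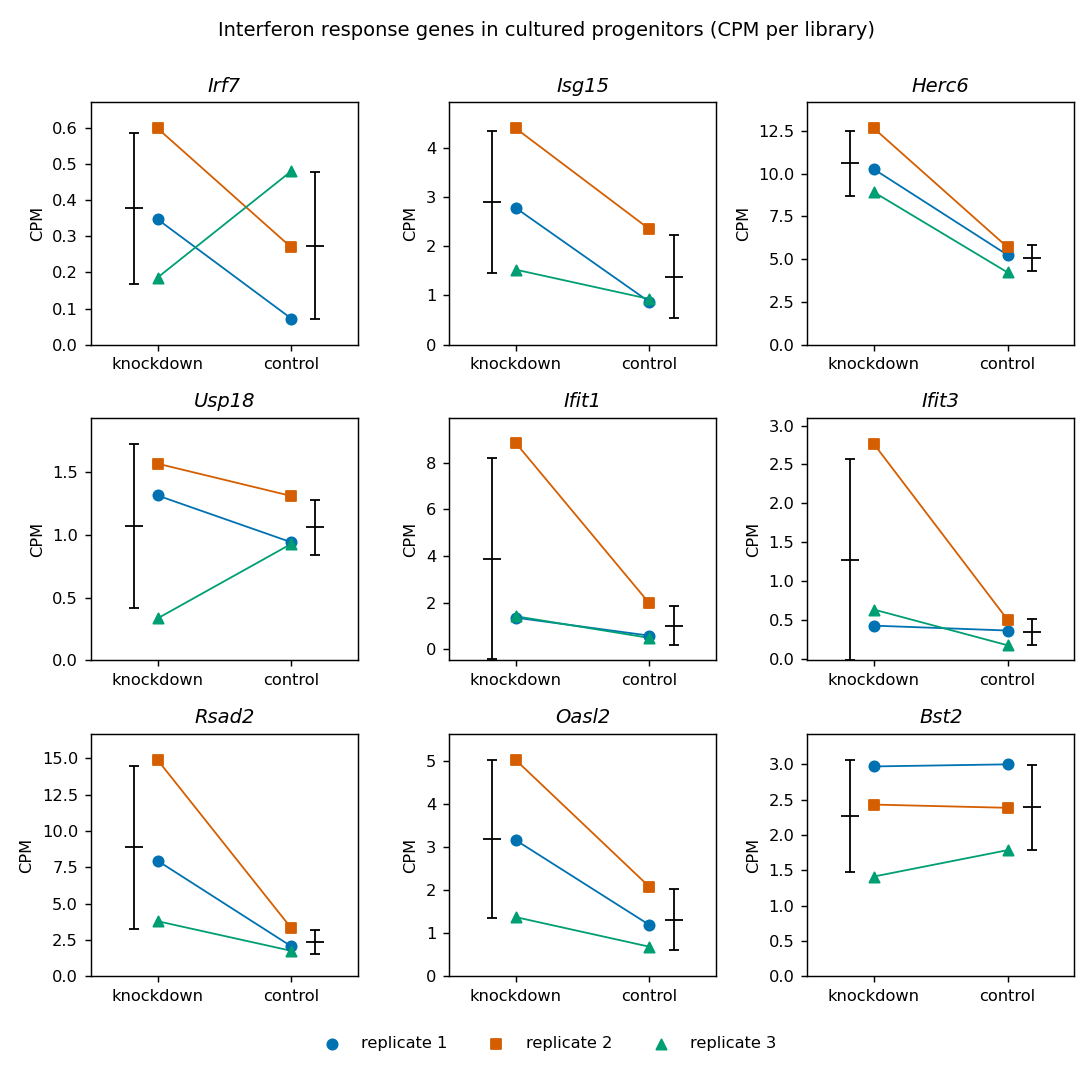
CPM of each of the 9 genes in the 3 knockdown-labelled and 3 control NPC libraries, 1 panel per gene with its own linear axis; marker shape and colour give the replicate number, lines join same-numbered libraries, and the bar beside each group is the mean with its SD. Replicate 2 was the highest knockdown-labelled library for every gene but Bst2, and the Herc6 and Rsad2 groups did not overlap.

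Irf7 (chr7:141262706-141266481, minus strand, mm10 as for all positions below), the transcription factor that amplifies interferon production, had 9, 18 and 5 counts in the knockdown-labelled libraries 1, 2 and 3, against 2, 7 and 14 in the controls. The knockdown-labelled library was higher in pairs 1 and 2 and lower in pair 3, and the groups overlapped. Over the 7 settings in which it was tested, its log2 fold change ranged from 0.00 to 0.77, and it was called in 0 of them. These were the fit without the count filter, 1 fit of all libraries, and fits that left out 1 library or 1 pair. All but the first kept the filter, which Irf7 passed on those sets of libraries. Irf7 overlaps Phrf1 on the opposite strand, which had 2773 to 3307 counts per library, so with the strand setting not given, reads of the 2 genes cannot be told apart.

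Isg15 (chr4:156199424-156200818, minus strand) encodes a ubiquitin-like protein that is joined to other proteins after interferon. It had 72, 132 and 41 counts in the knockdown-labelled libraries, against 24, 61 and 27 in the controls. The groups overlapped, since the second control lay above the third knockdown-labelled library, but each pair was higher, by 3.20, 1.87 and 1.64 times in CPM. Isg15 averaged 2.90 ± 1.44 CPM in knockdown-labelled NPC and 1.38 ± 0.838 CPM in control NPC (SD, n = 3 each). With pairs it rose by 1.07 on the log2 scale (SE 0.25, adjusted p = 0.00696), and without pairs the value was also 1.07 (SE 0.51, adjusted p = 0.324).

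Herc6 (chr6:57581000-57664632, plus strand) is the main ligase that joins ISG15 to its targets in mouse cells. Its counts were 266, 380 and 240 in the knockdown-labelled libraries, against 145, 148 and 123 in the controls, with no overlap. Every knockdown-labelled library lay well above all 3 controls, and the ratios of the pairs were close together at 1.96, 2.22 and 2.11. Herc6 averaged 10.6 ± 1.89 CPM in knockdown-labelled NPC and 5.05 ± 0.753 CPM in control NPC (SD, n = 3 each). It rose 2.09-fold without pairs (95% interval 1.55 to 2.80, adjusted p = 0.0381) and 2.08-fold with them (95% interval 1.75 to 2.48, adjusted p = 3.11e-05). In the fit without pairs it was still called without the third knockdown-labelled library, and not without any of the other 5, with an adjusted p of up to 0.164. Of the 50-base stretches of Herc6 transcripts, 12.0% also occur in the overlapping gene model Gm45193.

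Usp18 (chr6:121245906-121270917, plus strand) encodes the protease that removes ISG15 and blocks signalling at IFNAR. It had 34, 47 and 9 counts in the knockdown-labelled libraries, against 26, 34 and 27 in the controls. Pairs 1 and 2 were slightly higher and pair 3 was lower, at 0.361 of its control in CPM. This pattern of the pairs was shared with Irf7, and was found in 8.29% of all tested genes. The log2 fold change of Usp18 was -0.09 with pairs (95% interval -0.87 to 0.69, adjusted p = 0.888), so neither a moderate rise nor a moderate fall lies outside its interval.

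Ifit1 (chr19:34640871-34650009, plus strand) encodes a protein that binds viral RNA lacking the host's cap methylation. Its counts were 35, 266 and 38 in the knockdown-labelled libraries, against 16, 51 and 14 in the controls. Library 2 of the knockdown group stood far above the other 2, and control 2 lay above knockdown-labelled libraries 1 and 3. Within pairs it was higher by 2.33, 4.51 and 2.94 times in CPM. Ifit1 rose 3.42-fold with pairs (95% interval 2.33 to 5.02, adjusted p = 0.000252). Without pairs its log2 fold change was 1.94 (SE 0.88, adjusted p = 0.299), and 0.46 (adjusted p = 0.801) once the second knockdown-labelled library was left out.

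Ifit3 (chr19:34583531-34588731, plus strand), beside Ifit1, encodes a partner that stabilises IFIT1 on RNA in human cells. It had 11, 83 and 17 counts in the knockdown-labelled libraries, against 10, 13 and 5 in the controls. Pair 1 barely differed, at 1.17 times, while pairs 2 and 3 were 5.53 and 3.68 times higher in CPM. With pairs the log2 fold change was 1.69 (SE 0.44, adjusted p = 0.0126). That call was lost without pair 2 (0.99, adjusted p = 0.316) and without pair 3 (1.61, adjusted p = 0.120). Of its 50-base stretches, 51.2% also occur in Ifit3b, so the split between the 2 genes is uncertain. Their counts pooled were 14, 118 and 28 in the knockdown-labelled libraries, against 11, 25 and 7 in the controls, and each pair was higher.

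Rsad2 (chr12:26442746-26456452, minus strand) encodes viperin, which makes a nucleotide that ends viral RNA chains. Its counts were 206, 447 and 102 in the knockdown-labelled libraries, against 57, 86 and 51 in the controls. The groups did not overlap, and the lowest knockdown-labelled library was just above the highest control. Such a separation in the higher direction was seen for 2 of the 9 genes, Herc6 and Rsad2, and for 11.4% of all tested genes. Rsad2 averaged 8.88 ± 5.61 CPM in knockdown-labelled NPC and 2.37 ± 0.825 CPM in control NPC (SD, n = 3 each). It rose 3.48-fold with pairs (95% interval 2.63 to 4.60, adjusted p = 1.89e-05). Without pairs the estimate was 3.72-fold (95% interval 1.67 to 8.29, adjusted p = 0.110), and DESeq2 without pairs called it (adjusted p = 0.00167), beside 2.69% of all tested genes called higher by that tool.

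Oasl2 (chr5:114896936-114912234, plus strand) encodes a relative of the oligoadenylate synthetases, enzymes that answer double-stranded RNA. It had 82, 151 and 37 counts in the knockdown-labelled libraries, against 33, 54 and 20 in the controls. The third knockdown-labelled library fell within the range of the controls, and the pairs were higher by 2.65, 2.42 and 2.0 times in CPM. With pairs Oasl2 rose 2.36-fold (95% interval 1.68 to 3.31, adjusted p = 0.00136), and without pairs its log2 fold change was 1.27 (SE 0.54, adjusted p = 0.273).

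Bst2 (chr8:71534255-71537456, minus strand) encodes tetherin, a membrane protein that holds budding virus on the cell. Its counts were 77, 73 and 38 in the knockdown-labelled libraries, against 83, 62 and 52 in the controls. The pairs were at 0.990, 1.02 and 0.791 in CPM, and the groups overlapped throughout. With pairs its log2 fold change was -0.10 (95% interval -0.56 to 0.35, adjusted p = 0.774), an interval that lies below the estimates of all 6 genes that rose.

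The second replicate stood out for most of these genes in both NPC groups. It was the highest of the 3 knockdown-labelled libraries for 8 of the 9 genes, all but Bst2, against 29.5% of all tested genes. Among the controls it was highest for 7 of the 9, all but Irf7 and Bst2, against 26.6% of all tested genes. Summed over the 9 genes, the levels were 30.6, 53.2 and 19.6 CPM in the knockdown-labelled libraries, against 14.3, 19.9 and 11.4 CPM in the controls. Each sum was thus higher within its pair, and the sum of the third knockdown-labelled library was below that of the second control. Some markers of other cells were also highest in replicate 2. The 6 meningeal fibroblast markers summed to 15.4, 47.3 and 15.5 CPM in the knockdown-labelled libraries, against 18.3, 46.5 and 18.7 CPM in the controls. Of these, the collagen gene Col3a1 was at 0.386, 25.3 and 1.26 CPM in the knockdown-labelled libraries, against 0.181, 21.8 and 0.550 CPM in the controls. Foxc1 varied less, at 11.1 to 13.02 CPM in the knockdown-labelled libraries, against 15.4 to 17.5 CPM in the controls. Dcn was at 0.0772, 5.50 and 0.372 CPM in the knockdown-labelled libraries, against 0, 3.31 and 0.0343 CPM in the controls. The meningeal markers, Foxc1 included, were each highest in knockdown-labelled library 2, and all but Col1a2 were highest in control 2. The 6 choroid plexus markers summed to 20.6, 53.5 and 21.8 CPM in the knockdown-labelled libraries, against 11.4, 24.9 and 11.9 CPM in the controls. Nearly all of that sum was the transcription factor gene Otx2, at 19.5, 51.8 and 20.0 CPM in the knockdown-labelled libraries, against 10.5, 23.1 and 10.2 CPM in the controls. The other 5, Ttr among them, were each under 1 CPM in all 6 NPC libraries. The choroid plexus list thus did not move as a whole. The part of either cell type in the spread between replicates was not tested.

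Microglia were barely seen in the cultures. The 12 microglial markers summed to 0.888, 2.30 and 1.23 CPM in the knockdown-labelled libraries, against 0.579, 1.5 and 0.859 CPM in the controls. The sum was higher in every pair and highest in replicate 2 of both groups. P2ry12 made up most of it, at 0.772, 1.37 and 0.706 CPM in the knockdown-labelled libraries, against 0.362, 0.847 and 0.653 CPM in the controls. Of the 12 markers 1 was tested in NPC, and it was not called with pairs or without. Cx3cr1 and Trem2 were at 0 counts in all 6 NPC libraries and measured in cortex, and Tmem119, C1qa, C1qb and Tyrobp were at 0 in the controls as well. Aif1 was at 0 in all 12 libraries and gives no information. The 6 astrocyte markers summed to 2374 to 2468 CPM in the knockdown-labelled libraries, against 2072 to 2136 CPM in the controls, with no overlap and none at 0. Slc1a3 and Aldh1l1 made up most of the astrocyte sum. Gfap was lower in every pair, at 4.67, 2.73 and 2.34 CPM in the knockdown-labelled libraries, against 6.83, 3.62 and 5.53 CPM in the controls. With pairs, 4 of the 6 astrocyte markers were called higher and 1 lower, against 11.9% and 12.8% of all tested genes. The same shares stand beside the other marker counts with pairs below. The 9 vessel markers summed to 11.5 to 13.3 CPM in the knockdown-labelled libraries, against 17.9 to 22.5 CPM in the controls, and Cldn5 and Kcnj8 were at 0 in the knockdown-labelled ones. The lower sum was that of Flt1, at 6.75, 5.43 and 7.96 CPM in the knockdown-labelled libraries, against 15.6, 11.5 and 17.1 CPM in the controls. With pairs it was the only one called of the 5 vessel markers tested, and their median log2 fold change was 0.02. The 6 progenitor markers summed to 9046 to 11025 CPM in the knockdown-labelled libraries, against 9301 to 9704 CPM in the controls, and the 6 neuron markers to 1083 to 1367 CPM in the knockdown-labelled libraries, against 1026 to 1134 CPM in the controls. With pairs 1 progenitor marker was called higher and 1 lower. Fabp7, Vim and Nes made up most of the progenitor sum. Sox2 was at 247, 202 and 190 CPM in the knockdown-labelled libraries, against 305, 290 and 298 CPM in the controls. Its groups did not overlap, as for 11.8% of all tested genes in the lower direction. Of the neuron markers 0 of 6 were called with pairs, and 1 was higher and 1 lower at an unadjusted p under 0.05. That limit was passed by 5104 of all 14258 tested genes in either direction. DESeq2 with pairs called 1 neuron marker higher, beside 8.18% of all tested genes. Map2 made up nearly all of the neuron sum, at 1060 to 1340 CPM in the knockdown-labelled libraries, against 997 to 1108 CPM in the controls. The part of these shifts in the rise of the 6 genes was not tested. In bulk RNA, more cells of a type and more RNA per cell cannot be told apart.

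In cortex none of the 9 genes passed the test, with edgeR or with DESeq2, although all 9 were tested. Of all 15781 tested genes, edgeR called 0.171% and DESeq2 2.14%. At an unadjusted p under 0.05, edgeR called 1 member, Ifit1, and 10.9% of all tested genes. The median log2 fold change of the 9 genes was 0.22, against 0.00 over all tested genes, and 5 were positive. Counts were low, at 5 to 136 per library. DESeq2 gave no adjusted p for Isg15 and Ifit1.

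Ifit1 had 19, 36 and 25 counts in the cKO-labelled cortex libraries, against 5, 8 and 13 in control cortex. It was the only member whose cortex groups did not overlap, as 8.26% of all tested genes did not in the higher direction. It averaged 0.757 ± 0.242 CPM in cKO-labelled cortex and 0.243 ± 0.106 CPM in control cortex (SD, n = 3 each). Its log2 fold change was 1.62 (95% interval 0.47 to 2.78, unadjusted p = 0.0104, adjusted p = 0.279). Over 14 settings it stayed between 1.33 and 1.98, with an adjusted p of 0.279 to 0.702 where one was given. Of the 50-base stretches of Ifit1, 7.06% also occur in its neighbour Ifit1bl2, which had 24, 17 and 15 counts in cKO-labelled cortex, against 12, 2 and 12 in control cortex.

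The other members overlapped between the cortex groups. Irf7 had 23, 40 and 27 counts in cKO-labelled cortex, against 17, 26 and 19 in control cortex, and its log2 difference was 0.54 (SE 0.43, adjusted p = 0.693). Isg15 had 12, 16 and 11 counts in cKO-labelled cortex, against 29, 8 and 19 in control cortex, and its log2 fold change was -0.48 (SE 0.54, adjusted p = 0.795). These are among the lowest counts of the 9 genes, and the control libraries alone spanned more than the difference between groups. Rsad2, which had the smallest adjusted p in the NPC fit with pairs, had 14, 24 and 17 counts in cKO-labelled cortex, against 25, 19 and 18 in control cortex. Its log2 fold change there was -0.16 (95% interval -1.14 to 0.82, adjusted p = 0.927). Herc6 had 76, 75 and 127 counts in cKO-labelled cortex, against 86, 95 and 45 in control cortex, with a log2 fold change of 0.29 (95% interval -0.48 to 1.05, adjusted p = 0.812). Replicate 3 gave both the highest library, among those labelled cKO, and the lowest, among the controls. Usp18 had 19, 22 and 15 counts in cKO-labelled cortex, against 32, 14 and 27 in control cortex (log2 fold change -0.34, SE 0.46). Ifit3 had 18, 25 and 41 counts in cKO-labelled cortex, against 30, 13 and 30 in control cortex (log2 fold change 0.22, SE 0.46). Oasl2 had 54, 95 and 47 counts in cKO-labelled cortex, against 39, 33 and 96 in control cortex (log2 fold change 0.26, SE 0.44). Bst2, with the most counts of the 9 in cortex, had 82, 117 and 109 in cKO-labelled cortex, against 122, 89 and 136 in control cortex (log2 fold change -0.15, SE 0.23). Adjusted p of these 4 ranged from 0.832 to 0.901, and the groups of each overlapped.

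**Figure D2:**
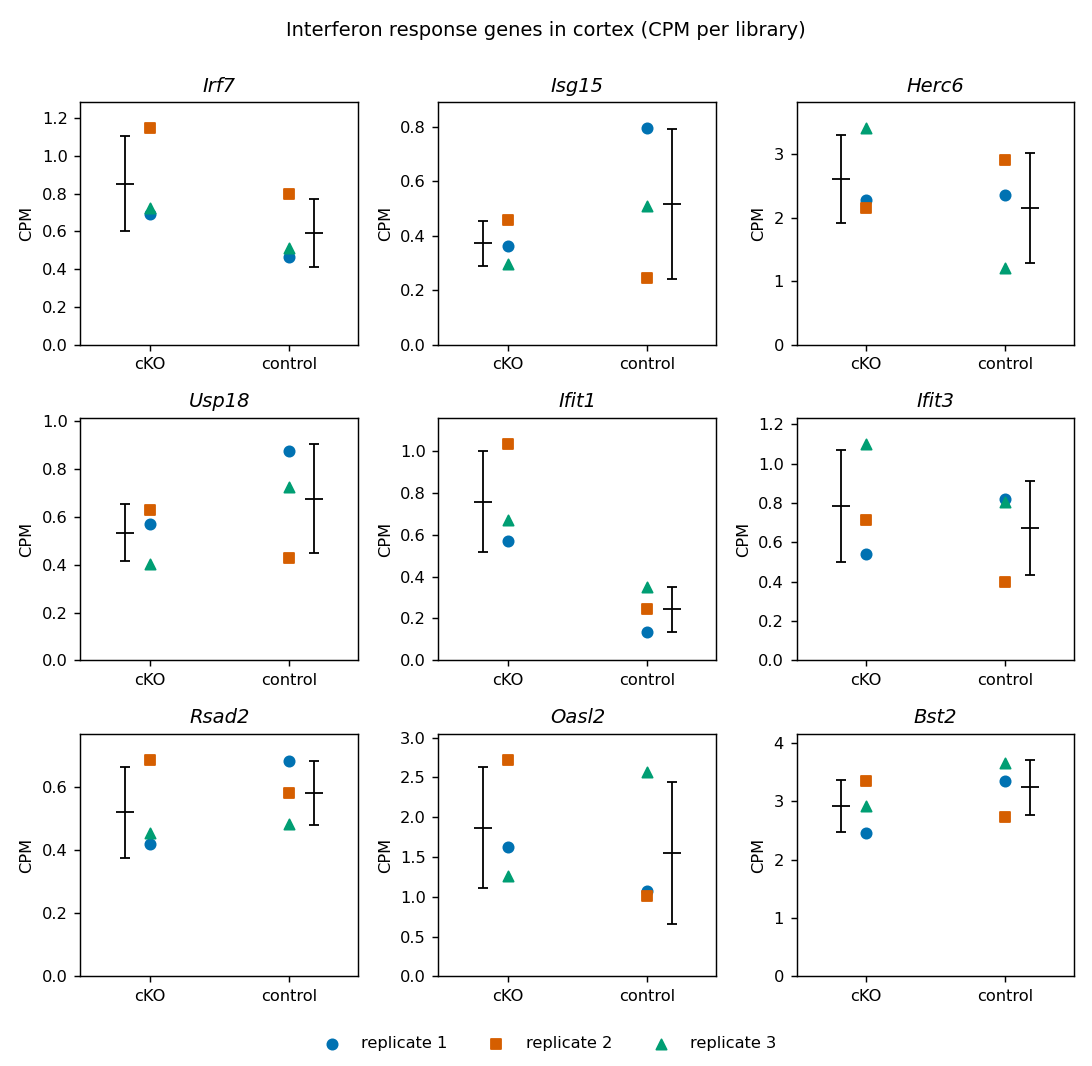
CPM of each of the 9 genes in the 3 cKO-labelled and 3 control cortex libraries, 1 panel per gene with its own linear axis starting at 0; shapes and colours give the replicate number and the bar beside each group is the mean with its SD. Ifit1 is the panel in which all 3 cKO-labelled libraries lie above all 3 controls; its adjusted p was 0.279.

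Summed over the 9 genes, cortex levels were 9.51, 12.9 and 11.2 CPM in the cKO-labelled libraries, against 10.5, 9.33 and 10.8 CPM in the controls. The second cKO-labelled library was highest and the second control lowest. The second control was lowest in the 12 microglial markers too, which summed to 100 to 106 CPM in cKO-labelled cortex, against 95, 72.1 and 116 CPM in control cortex, and Aif1 was at 0 in both groups. The 9 vessel markers summed to 292 to 352 CPM in cKO-labelled cortex, against 290, 239 and 371 CPM in control cortex, and the 6 meningeal markers to 159 to 257 CPM in cKO-labelled cortex, against 135, 28.1 and 233 CPM in control cortex. The second control was again the lowest in both lists, and the part of these cells in the levels was not tested. Ttr, a choroid plexus transcript, was at 1082 CPM in the third cKO-labelled library and at 1194 CPM in the second control. Without these 2 libraries, still 0 of the 9 genes passed.

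The NPC change was then set against the cortex change in 1 fit of all 12 libraries. Without pairs 0 of the 9 genes differed between the systems with edgeR, where 1.46% of all 16569 tested genes did. At an unadjusted p under 0.05 there was 1 member, Rsad2, and 14.2% of all tested genes, and DESeq2 called Rsad2 alone of the 9, beside 4.73% of all tested genes, and gave 5 members no adjusted p. With the NPC libraries paired, Rsad2 was called, with a difference of 1.92 on the log2 scale (95% interval 1.02 to 2.83, adjusted p = 0.0199), and 5.05% of all tested genes were. That call was lost without pair 1 (1.82, adjusted p = 0.0766) and without pair 2 (1.70, adjusted p = 0.137). For Isg15 the difference was 1.58 (95% interval 0.28 to 2.87, adjusted p = 0.165) and for Ifit3 it was 1.39 (95% interval -0.18 to 2.96, adjusted p = 0.331). For Herc6 it was 0.78 (95% interval -0.07 to 1.63, adjusted p = 0.309), and for Oasl2 it was 0.98 (95% interval -0.25 to 2.21, adjusted p = 0.393). The difference of Ifit1 was 0.08 (95% interval -1.34 to 1.5, adjusted p = 0.992), a wide interval that holds large differences either way. For 5 of the 6 genes that rose in NPC with pairs, a difference from cortex was therefore not shown.

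**Figure D3:**
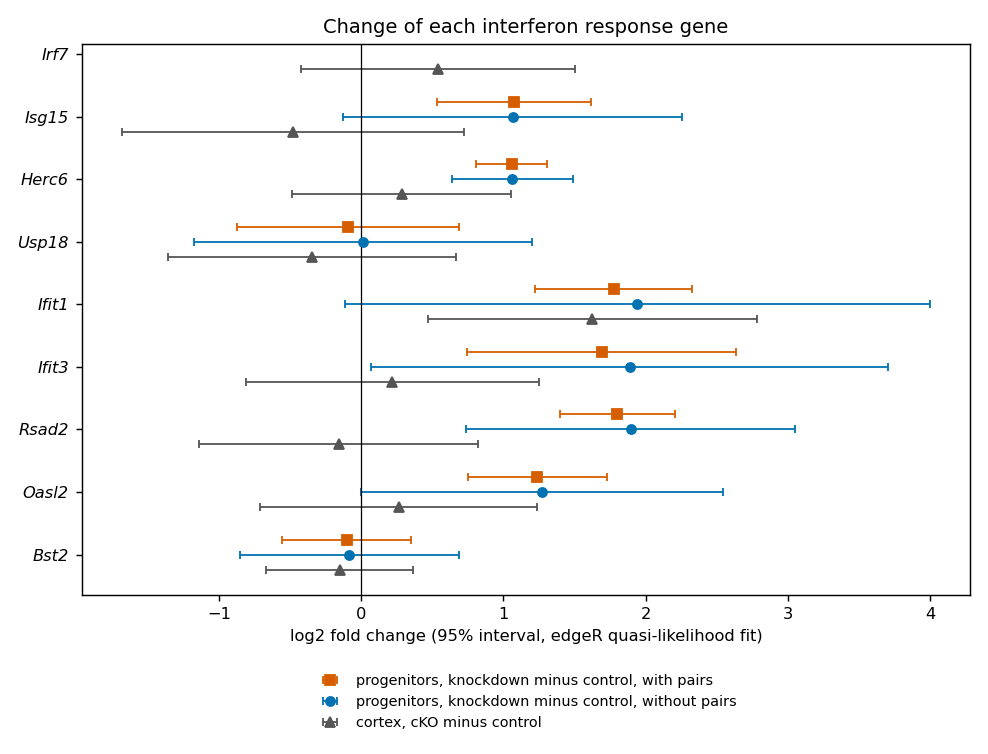
Log2 fold change of each gene with its 95% interval on the horizontal axis: squares are NPC, knockdown minus control, with pairs; circles are the same without pairs; triangles are cortex, cKO minus control. The 6 genes that rose with pairs lie between 1.06 and 1.80, pairing narrows their intervals, and Irf7 has no NPC value.

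Levels also differed between the 2 systems in their controls. Control NPC lay above control cortex with no overlap for 5 of the 9 genes, Isg15, Herc6, Usp18, Ifit1 and Rsad2, and below it for 0. Over all tested genes, 39% lay above and 41.6% below, so the count above is near that background. Rsad2 averaged 8.88 ± 5.61 CPM in knockdown-labelled NPC, 2.37 ± 0.825 in control NPC, 0.521 ± 0.145 in cKO-labelled cortex and 0.583 ± 0.101 in control cortex (SD, n = 3 each). The 2 cortex groups at the low end did not differ beyond their spread. Herc6 followed the same order of systems, at 10.6 ± 1.89 and 5.05 ± 0.753 CPM in knockdown-labelled and control NPC, and 2.61 ± 0.691 and 2.16 ± 0.867 CPM in cKO-labelled and control cortex. Isg15 was highest in knockdown-labelled NPC at 2.90 ± 1.44 CPM, then 1.38 ± 0.838 in control NPC, 0.371 ± 0.0822 in cKO-labelled cortex and 0.516 ± 0.274 in control cortex. Ifit1 was at 3.87 ± 4.32 CPM in knockdown-labelled NPC, 1.01 ± 0.829 in control NPC, 0.757 ± 0.242 in cKO-labelled cortex and 0.243 ± 0.106 in control cortex, and only the last of these stands clear of its neighbour. Oasl2 was at 3.19 ± 1.83, 1.32 ± 0.704, 1.87 ± 0.761 and 1.55 ± 0.888 CPM in knockdown-labelled NPC, control NPC, cKO-labelled cortex and control cortex, and neighbours in the order of level overlapped. Ifit3 was at 1.27 ± 1.30, 0.345 ± 0.165, 0.785 ± 0.286 and 0.674 ± 0.240 CPM in the same 4 groups, and here too neighbours in the order of level overlapped. Usp18 was at 1.07 ± 0.650, 1.06 ± 0.216, 0.534 ± 0.118 and 0.676 ± 0.227 CPM, and the 2 groups of each system overlapped. Irf7 went the other way, at 0.378 ± 0.208, 0.274 ± 0.204, 0.853 ± 0.254 and 0.590 ± 0.179 CPM. Bst2 was likewise somewhat higher in cortex, at 2.27 ± 0.792, 2.39 ± 0.608, 2.91 ± 0.445 and 3.24 ± 0.471 CPM, with overlap throughout. Tissue, culture and virus infection differ together between the systems and cannot be told apart. Some other genes had counts in only 1 system. H2-D1 was at 0 in every cortex library and at 436 to 711 counts in NPC, and Trex1 at 0 in every NPC library and at 393 to 636 counts in cortex. Whether the libraries of the 2 systems were counted alike is not stated and was not tested.

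Genes around these 9 in the pathway came from 8 lists, counted against the same fits. Of the interferon ligands, 21 genes were in the table and 0 passed the filter. Ifnb1, Ifna1 and Ifna2 were at 0 counts in all 12 libraries, where 3 counts, the limit that a count of 0 allows per library, come to 0.0817 to 0.115 CPM. Ifnab had 2, 5 and 2 counts in the knockdown-labelled NPC libraries, against 3, 1 and 1 in control NPC, and the other ligands had at most 1 count in a library. Receptors, their kinases and the transcription factors they activate were well measured, with 11 of 12 genes tested. With pairs 1 was called higher and 1 lower, against 11.9% and 12.8% of all tested genes. Stat2 rose by 0.42 (SE 0.11, adjusted p = 0.0162) and Ifngr2, a chain of the interferon gamma receptor, fell by 0.24 (SE 0.06, adjusted p = 0.00997), both log2 fold changes. Irf9 was at -0.19 (adjusted p = 0.259), Ifnar1 at -0.12 (adjusted p = 0.121), Ifnar2 at 0.02 (adjusted p = 0.895) and Ifngr1 at 0.08 (adjusted p = 0.421). The median of the list was -0.01.

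Sensors of nucleic acid and their adaptors gave 12 tested genes and a median log2 fold change of 0.02. With pairs 1 was called higher and 2 lower, against 11.9% and 12.8% of all tested genes. Ifih1, which encodes MDA5, a sensor of long double-stranded RNA, had 199, 429 and 126 counts in the knockdown-labelled libraries, against 99, 164 and 107 in the controls. It rose by 0.90 (SE 0.16, adjusted p = 0.00119) with pairs. The related sensors Ddx58 (RIG-I), at 0.11 (adjusted p = 0.418), and Dhx58 (LGP2), at 0.40 (adjusted p = 0.230), did not pass. Ikbke and Traf6 fell both with pairs and without, and without pairs 1.54% of all tested genes were called lower. Ikbke, which encodes a kinase that activates interferon regulatory factors, had 63, 70 and 67 counts in the knockdown-labelled libraries, against 122, 128 and 133 in the controls, and fell by 0.95 (SE 0.17, adjusted p = 0.00137 with pairs, 0.0376 without). Traf6, an adaptor ligase, fell by 0.46 (SE 0.06, adjusted p = 0.000160 with pairs, 0.0488 without). Mb21d1 and Tmem173 of this list were not analysed here.

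Of the 3 listed enzymes that act with Herc6 to attach ISG15, 2 were tested in NPC. With pairs 1 of them, Ube2l6, was called lower and 0 higher, against 12.8% and 11.9% of all tested genes. Ube2l6, which hands ISG15 to its ligases, had 146, 119 and 112 counts in the knockdown-labelled libraries, against 260, 229 and 265 in the controls. The groups did not overlap, as for 11.8% of all tested genes in the lower direction. Ube2l6 fell by 1.01 (SE 0.13, adjusted p = 0.000132) with pairs, and its adjusted p was 0.0381 without, where 1.54% of all tested genes were called lower. Uba7, the activating enzyme, had 6, 14 and 0 counts in the knockdown-labelled libraries, against 0, 7 and 0 in the controls, and was not tested. Trim25, another ligase, was at 0.06 (adjusted p = 0.815). Genes that restrain the response gave 10 tested and a median of 0.16. With pairs 3 were called higher and 1 lower, against 11.9% and 12.8% of all tested genes. Nlrx1 at 0.30 (adjusted p = 0.00441), Rnaseh2a at 0.32 (adjusted p = 0.0116) and Samhd1 at 0.23 (adjusted p = 0.0128) rose, and Otud5 fell by 0.21 (adjusted p = 0.00939). The feedback inhibitors Socs1, at -0.46 (adjusted p = 0.443), and Socs3, at 0.17 (adjusted p = 0.387), did not pass. Trex1 was at 0 counts in all 6 NPC libraries, and at 393 to 636 counts in cortex.

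Other interferon-induced genes were 50, of which 26 were tested in NPC. With pairs 7 were called higher (26.9%) and 2 lower (7.69%), 17 were not called, and the median was 0.20, against 11.9% called higher and 12.8% lower over all tested genes. The 7 were Ifit2, Ifit3b, Oasl1, Rtp4, Samd9l, Lgals3bp and Ddx60, and those called lower were Znfx1 and Shisa5. Without pairs edgeR called 0 of the 26, with 5 higher and 2 lower at an unadjusted p under 0.05, which 18.3% of all tested genes passed in either direction. DESeq2 without pairs called 2 higher, beside 2.69% of all tested genes. Rtp4 had 85, 133 and 52 counts in the knockdown-labelled libraries, against 28, 44 and 26 in the controls, and rose by 1.39 (SE 0.23, adjusted p = 0.000698). Oasl1, the relative of Oasl2, had 54, 85 and 26 counts in the knockdown-labelled libraries, against 26, 28 and 9 in the controls, and rose by 1.34 (SE 0.28, adjusted p = 0.00320). Ddx60 rose by 1.36 (adjusted p = 0.00346), Ifit2 by 0.55 (adjusted p = 0.000227) and Ifit3b by 1.61 (adjusted p = 0.0322). Replicate 2 was the highest knockdown-labelled library for Rtp4, Oasl1 and Ddx60, and replicate 1 for Ifit2, at 28.3, 23.5 and 21.5 CPM in the knockdown-labelled libraries, against 19.02, 15.7 and 15.04 CPM in the controls. Ifit1bl1 had at most 7 counts in an NPC library and was not tested there.

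Targets of interferon gamma and MHC class I genes gave 20 tested and a median of 0.13. With pairs 4 were called higher (20%) and 3 lower (15%), against 11.9% and 12.8% of all tested genes. Cxcl10, a chemokine, had 234, 561 and 173 counts in the knockdown-labelled libraries, against 181, 172 and 121 in the controls, and rose by 0.89 (SE 0.17, adjusted p = 0.00190). H2-K1, a class I heavy chain, rose by 0.46 (adjusted p = 0.000256) and Irf1 by 0.32 (adjusted p = 0.0414), while B2m was at 0.11 (adjusted p = 0.174). Gbp3 fell by 0.40 (adjusted p = 0.00321) and Nlrc5, the activator of class I genes, fell by 0.63 (adjusted p = 0.0116). Of NF-kB targets and cytokines 7 were tested, with a median of -0.23, and 1 was called higher and 3 lower, against the same shares. Vcam1 rose by 0.64 (adjusted p = 4.54e-06), and Icam1 fell by 1.03 (adjusted p = 0.00321), Nfkbia by 0.38 (adjusted p = 0.00562) and Nfkb2 by 0.23 (adjusted p = 0.0145). Il6, Tnf and Il1b had at most 2 counts in any NPC library. In cortex edgeR called 0 of the 95 tested genes of these 8 lists. At an unadjusted p under 0.05, 8 were higher and 4 lower, and 10.9% of all tested genes passed in either direction. DESeq2 called 1, Irf3, as lower, beside 2.14% of all tested genes. Ifit1bl1, which lies beside Ifit1, had 77, 100 and 80 counts in cKO-labelled cortex, against 46, 25 and 66 in control cortex, without overlap (log2 fold change 0.94, adjusted p = 0.343). Dhx58 had 24, 38 and 46 counts in cKO-labelled cortex, against 15, 10 and 24 in control cortex (1.15, adjusted p = 0.385), and did not overlap in CPM either. Such a separation in the higher direction was seen for 8.26% of all tested genes in cortex. Among the 39 tested genes of the list of other induced genes, 5 had an unadjusted p under 0.05 with a higher level in cKO-labelled cortex. The share over all tested genes was the same 10.9% in either direction. DESeq2 called 0 of the 39, and the median was 0.22.

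**Figure D4:**
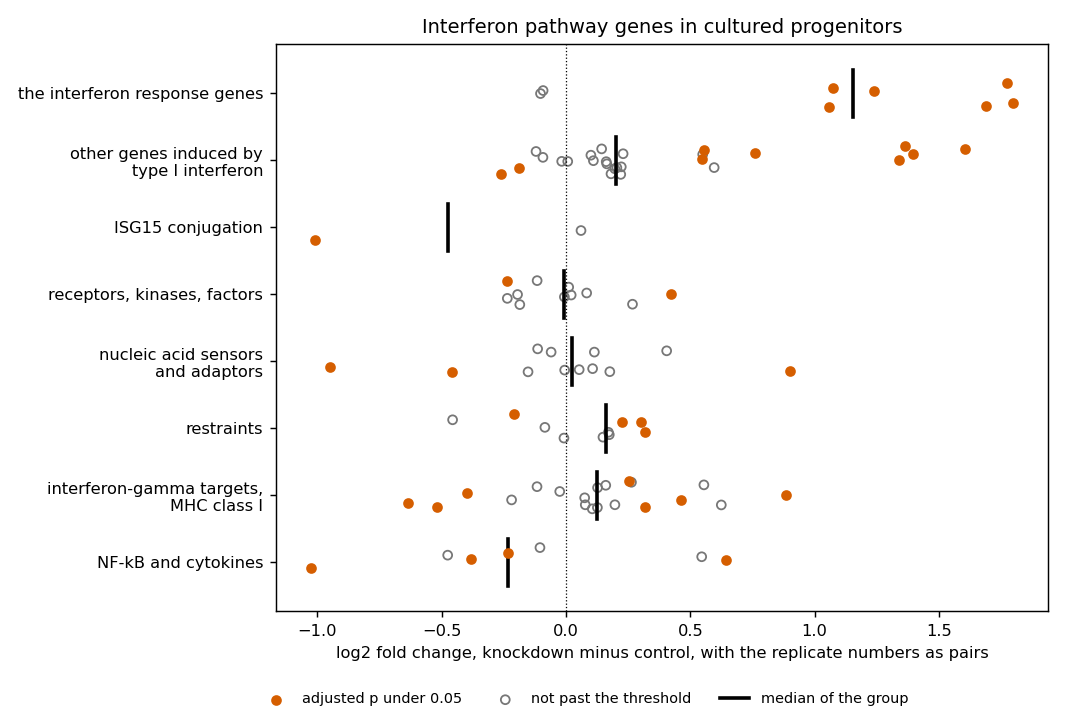
Log2 fold change in NPC, knockdown minus control with pairs, for each tested gene of the 9 and of the 7 lists with tested genes, 1 row per list; filled points passed an adjusted p of 0.05 and the black bar is the median. The 9 genes have 6 filled points above 1.0, and the other induced genes spread from -0.26 to 1.61 around a median of 0.20.

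Genes outside the set were ranked by how closely they followed the mean of the 9 over the 12 libraries, on log2 CPM with the mean of each system removed. Among 13524 genes tested in both systems, the 8 most alike were Sned1, Ifih1, Aqp4, Rab3il1, Stard8, Colgalt2, Nsg2 and Gabbr2, with Pearson correlations of 0.97, 0.95, 0.95, 0.94, 0.93, 0.92, 0.92 and 0.91. The 12 points are libraries of 4 groups, so differences between groups and between replicates both enter these values, and the second knockdown-labelled library was the highest NPC library for all 8. Within NPC alone the correlations of the 8 were 0.94 to 0.998, and within cortex alone they ran from 0.31 for Nsg2 to 0.89 for Stard8. Only Ifih1 belongs to the interferon lists, and Aqp4 is on the astrocyte list. Sned1 had 184, 354 and 113 counts in the knockdown-labelled libraries, against 89, 144 and 88 in the controls. With pairs 6 of the 8 were called higher, all but Rab3il1 and Stard8, against 11.9% of all tested genes. They were chosen for following a profile that holds the difference between knockdown-labelled and control NPC, so that count is no independent result. Gabbr2 had the largest log2 fold change of them at 1.41 (adjusted p = 0.000495). The members themselves followed their own mean by 0.93 for Rsad2, 0.89 for Oasl2, 0.87 for Ifit1, 0.85 for Isg15 and Ifit3, 0.60 for Herc6, 0.55 for Irf7, 0.51 for Usp18 and 0.32 for Bst2. That mean holds each member itself, which raises its correlation. Within NPC alone the members ran from 0.30 for Bst2 to 0.97 for Isg15, and within cortex alone from -0.21 for Herc6 to 0.71 for Oasl2.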

How the data were processed

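Bulk RNA-seq of 12 mouse libraries was analysed from 1 table. Per the submitters' processing notes, reads were aligned with HISAT2 (version not stated) to mm10. The deposited values are raw counts per gene. No source used here names the counting program, its annotation or its strand setting. TMM normalisation and the filterByExpr filter of edgeR 4.0.16 under R 4.3.3 were applied in each comparison. Differences were tested with the quasi-likelihood test, and genes were called at a Benjamini-Hochberg adjusted p under 0.05 over all tested genes. CPM levels use TMM factors over all 12 libraries, except Ttr and Ddx3y, which use total counts. Fold changes are knockdown or cKO over control.

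The labels number replicates 1 to 3 in each group without saying that they are pairs. Residuals of same-numbered NPC libraries correlated by 0.47, 0.49 and 0.44, and those of cortex by 0.02, -0.17 and -0.02, so NPC results are given also with the replicate number as a block. Replicates of a group differed by more than counting noise (chi-square per gene 7.52 to 42.9). DESeq2 1.42.0, RLE size factors, no filter, 1 fit of all libraries, a term for sex, with over 10 CPM of Ddx3y read as male, leaving out cortex libraries with more than 1000 CPM of Ttr and leaving out each library or pair were the alternatives. The members, the lists and the alternatives were chosen with earlier results of these data known. Named genes were the 9 members, Srsf10, the first 3 of each list and up to 4 of each with the smallest adjusted p, and the 8 genes most like the members. Samd9l, Lgals3bp, Znfx1, Shisa5, Ifnab, Irf3 and Ifit1bl2 were named after their values were seen, as were Irf9 and the cell markers. Gene positions and 50-base overlaps came from GENCODE M21 on the same build, which matched 34065 of 34102 identifiers. Procedures were tested on simulated data. Libraries held 26074094 to 36713205 counts, and floors of 3 counts cover counting error only. Figures were drawn with matplotlib 3.10.9 in Python 3.11.15. The value of 1 listed gene is not reported here.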

Additional observations from a re-analysis of the deposited data

Results flagged for a closer look

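Of 174 genes given the test of the difference between the NPC change and the cortex change (the 9 members, the listed genes, the cell markers and the most alike genes), 9 differed with the NPC libraries paired, as did 5.05% of all tested genes. Rsad2, the only member among them, differed by 1.92 on the log2 scale (SE 0.42, adjusted p = 0.0199), with a higher value in NPC. Higher in NPC were also the differences of Rnaseh2a at 0.57 (adjusted p = 0.0349), Vcam1 at 0.66 (adjusted p = 0.0120), Irf3 at 0.66 (adjusted p = 0.0313) and the astrocyte markers Aqp4 at 0.58 (adjusted p = 0.0360) and Aldh1l1 at 0.48 (adjusted p = 0.0105). So were those of Nsg2 at 0.43 (adjusted p = 0.0304) and Gabbr2 at 1.27 (adjusted p = 0.00904), which like Aqp4 were chosen for their likeness to the members in these libraries. The vessel marker Flt1 had a lower value in NPC, at -1.23 (adjusted p = 0.00573). Without pairs 1 of the 9 passed, Flt1 at -1.24 (adjusted p = 0.0433), and Rsad2 was at 2.07 (adjusted p = 0.157). The other 7 had adjusted p from 0.0552 for Irf3 to 0.484 for Nsg2. Groups of 3 libraries are too small for the search for single libraries far from the rest, so none was made.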

How the results depend on the processing

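In cortex 0 of the 9 genes were called in each of 14 settings. Over all genes the cortex count was 27, against 156 without the filter, 338 with DESeq2, 49 in 1 fit of all libraries, 1 with the replicate block, 12 with sex as a covariate and 0 to 28 without 1 library. It was 0 (1096 at an unadjusted p under 0.05) without cKO library 1, 16 without cKO library 2 and 1 without cKO library 3.

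In NPC 1 of the 9 genes was called higher without pairs, and 2 with DESeq2. With the replicate block it was 6, also with RLE size factors, and 5 with DESeq2, where Ifit3 had no adjusted p. Leaving out 1 library or pair gave 0 to 6 (0 to 2 without pairs, 5 or 6 with them). Over all genes 270 were called, against 1012 with DESeq2, 654 in 1 fit of all libraries and 3522 with the block (2437 with DESeq2, 3489 with RLE size factors). The count was 47 to 304 without 1 library and 1636, 2170 and 4376 without pairs 3, 2 and 1. It was 69 and 176 without knockdown libraries 2 and 3, and 95, 55 and 47 without control libraries 1, 2 and 3.

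For the difference between systems 242 genes were called, against 783 with DESeq2, 836 with the block, 1398 with the block and DESeq2 and 810 with the block and RLE size factors. It was 98 to 275 without 1 library, and 271 to 461 without 1 pair.

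Signs turned only for log2 values that were called in neither setting. In cortex these were Ifit3, at -0.37 without the Ttr-rich libraries and -0.10 to 0.42 without 1 library, Oasl2 (-0.11 to 0.84) and Herc6 (-0.0054 to 0.55). In NPC they were Usp18, at -0.092 with the replicate block, -0.17 with the block and DESeq2, -0.090 with the block and RLE size factors, -0.36 to 0.44 without 1 library and -0.36, -0.33 and 0.35 without pairs 1, 2 and 3, and Bst2 (-0.32 to 0.17). For the difference they were Irf7, at 0.03 with the block and DESeq2 and -0.59 to 0.61 without 1 library, Bst2 (-0.16 to 0.31), Usp18 (-0.0175 to 0.77) and Ifit1 (-1.16 to 1.23). Without 1 pair, with the block, they were -0.58 to 0.99 for Irf7, -0.0018 and -0.0045 (pairs 1 and 2) to 0.15 for Bst2, -0.16 and -0.051 (pairs 1 and 2) to 0.70 for Usp18, and -0.23 to 0.28 for Ifit1. The causes were not tested. Leaving out 1 library leaves 2 against 3, and most cortex counts of these genes were under 50, which limits their precision.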
